A study of Homo sapiens with 6 samples.

Results

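To examine where N-Myc and JMJD6 were bound at the genes of serine, glycine and one-carbon metabolism, 10 genes were looked up by symbol in the deposited lists of bound promoters, typical enhancers and super-enhancers, out of 19126 autosomal protein-coding genes in the reference table. The members were PHGDH, PSAT1 and PSPH, which make serine, SHMT1 and SHMT2, which convert serine to glycine, MTHFD1, MTHFD2, MTHFD1L and ALDH1L2, which process folate-bound one-carbon units, and ATF4, a transcription factor of the amino acid response. Chromatin immunoprecipitation and sequencing (ChIP-Seq) was performed in CHP-134 cells, a human neuroblastoma line that the series title describes as overexpressing N-Myc, with an anti-N-Myc antibody in 3 samples or an anti-JMJD6 antibody in 3 samples. Cells for N-Myc were cross-linked with formaldehyde alone and cells for JMJD6 with DSG followed by formaldehyde, so antibody and cross-linking cannot be told apart. No treatment was compared, and all 6 samples came from the same cell line. The lists give positions of peaks found in all 3 replicates of an antibody, with no height, count or value per sample, so that the reads behind a peak are not known from them, replicate error could not be computed and no significance test was run. Whether the 3 replicates of an antibody came from separate cultures is not given in the labels. Of 10 genes of the sympathetic adrenergic lineage used to check the cell line, 9 had an N-Myc-bound region assigned to them, with super-enhancers among them at HAND2 and GATA3, while DBH had none; the lists do not measure expression.

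PHGDH oxidises the glycolytic intermediate 3-phosphoglycerate, PSAT1 adds an amino group and PSPH removes the phosphate to give serine. The SHMT enzymes then pass a carbon of serine to tetrahydrofolate and release glycine, SHMT1 in the cytosol and SHMT2 in mitochondria. One-carbon units carried by folate are used for purine, thymidylate and methionine synthesis. Myc proteins bind DNA as dimers with MAX, preferentially at the E-box CACGTG, and ATF4 binds elements of the form TGATGNAA in many genes of amino acid synthesis.

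The reference sequences at the N-Myc peaks of the members are shown first, because CACGTG is the preferred binding sequence of Myc proteins and was the main motif searched. Each is written 5′ to 3′ on the strand of the gene to which the region was assigned, on build GRCh37, with CACGTG in capitals. Stretches that reach an annotated untranslated region are limited to 30 bases and the others to 100 bases. The other E-box of the PSAT1-assigned enhancer and that in the peak at NDUFA4L2, in the enhancer assigned to SHMT2, are not shown.
SHMT2 first E-box, chr12:57623650-57623749, plus strand: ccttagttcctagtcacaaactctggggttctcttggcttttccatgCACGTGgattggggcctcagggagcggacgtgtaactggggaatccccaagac
SHMT2 second E-box, chr12:57623819-57623848, plus strand: gaccgcccatttCACGTGgcattaggggag
MTHFD1 E-box, chr14:64855044-64855073, plus strand: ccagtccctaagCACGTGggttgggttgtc
ATF4 E-box, chr22:39916470-39916499, plus strand: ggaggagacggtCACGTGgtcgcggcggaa
ALDH1L2 E-box, chr12:105476988-105477087, minus strand: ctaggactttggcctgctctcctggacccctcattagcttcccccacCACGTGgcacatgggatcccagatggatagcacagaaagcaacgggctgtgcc
PHGDH E-box, chr1:120255892-120255991, plus strand: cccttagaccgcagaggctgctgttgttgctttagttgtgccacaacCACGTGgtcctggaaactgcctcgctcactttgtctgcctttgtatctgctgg
PSAT1-assigned enhancer E-box, chr9:81193215-81193314, plus strand: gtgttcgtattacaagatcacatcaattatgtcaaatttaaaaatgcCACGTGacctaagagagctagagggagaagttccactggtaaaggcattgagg

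N-Myc was bound at the promoters of 4 of the 10 members, SHMT2, MTHFD1, ALDH1L2 and ATF4. The share was 40% (exact binomial 95% CI 12.2 to 73.8%, counting error only), and 18.4% of all autosomal protein-coding genes had an N-Myc-bound promoter. The members were not drawn at random and were chosen with earlier results of these data known. The intervals given here are therefore no test against the share of all genes. A bound promoter is a window in the deposited list that reaches 1 kb upstream and downstream of a start site in RefSeq; of the 5114 listed, 131 overlapped no common N-Myc peak, none of them at a member. Typical enhancers are H3K27ac-marked regions below the rank of super-enhancers, and each was listed with its nearest genes, so an assignment is by distance and not by contact. Those bound by N-Myc named 7 of the 10 members among their nearest genes, or 70% (95% CI 34.8 to 93.3%), against 32.8% of all genes. These 7 were the same 4 members plus PHGDH, PSAT1 and MTHFD1L, so that 7 of 10 had an N-Myc-bound region of some kind, against 38.2% of all genes. PSPH, SHMT1 and MTHFD2 had none. No member was assigned to an N-Myc-bound super-enhancer, against 1.37% of all genes, and no member had a JMJD6-bound region, against 1.32% of all genes. At those background shares a count of 0 among 10 genes is near the background.

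The 4 members with a bound promoter all had a bound typical enhancer as well, as did 72.9% of the 3519 genes with a bound promoter. Both kinds of region were thus found in 4 of 10 members and in 13.4% of all genes. Enhancers and promoters were not separate regions here. Of the 9 enhancers assigned to members, 6 overlapped an N-Myc-bound promoter of a member or a neighbour, and over the whole list 52.8% did. When enhancers over a bound promoter were left out, 3 of 10 members remained, PHGDH, PSAT1 and MTHFD1L, against 14.5% of all genes.

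**Figure D1:**
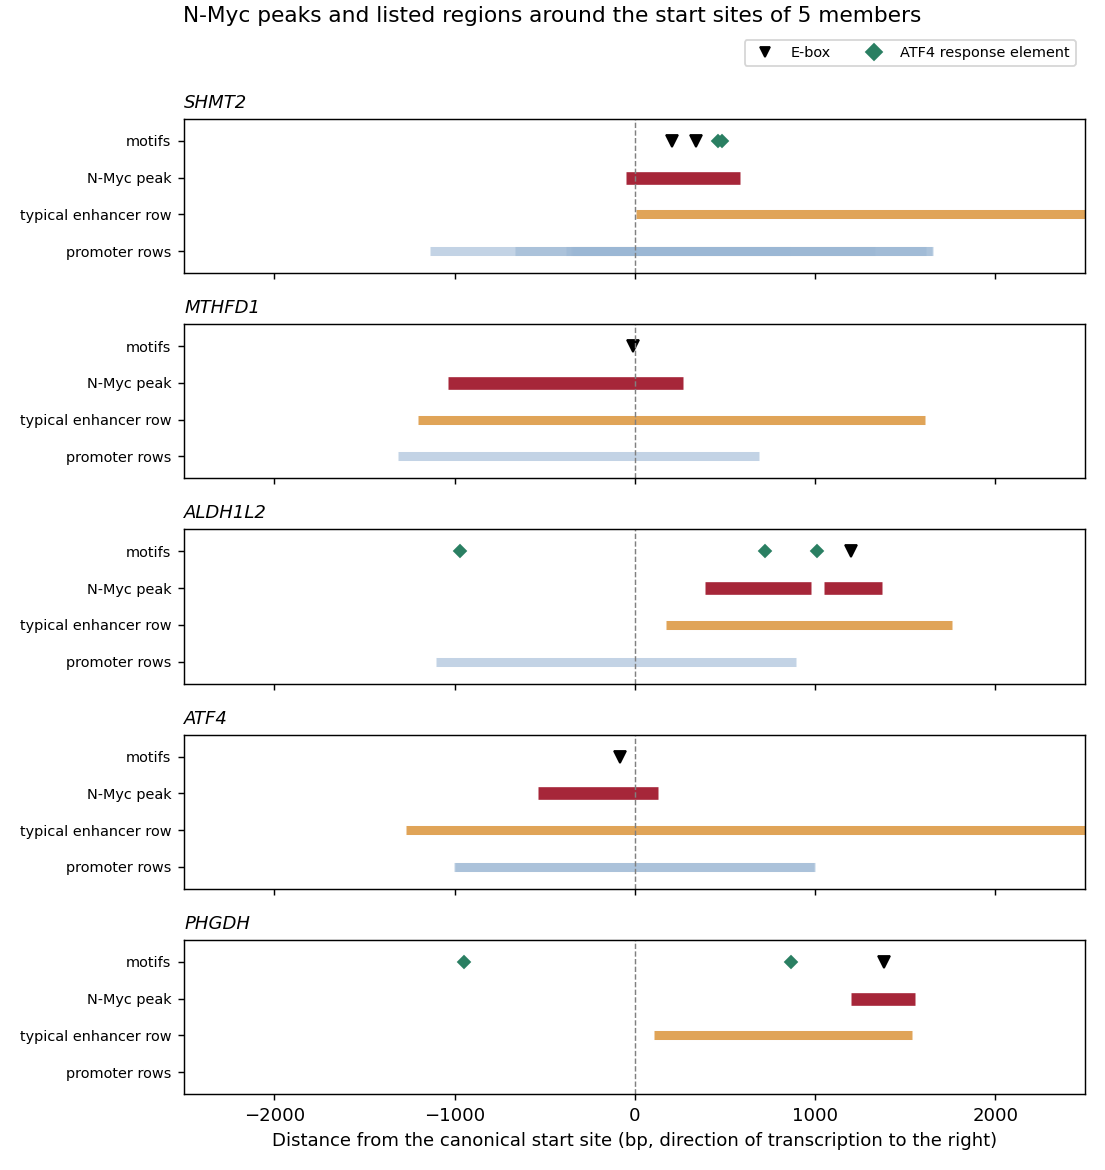
Positions of N-Myc peaks (red bars), listed typical enhancers (orange), listed promoters (blue, darker where several start sites overlap), E-boxes (CACGTG, triangles) and ATF4 response elements (TGATGNAA, diamonds) around the canonical start site of 5 members, with the distance in bp on the horizontal axis and transcription to the right. The peak covers the start site at SHMT2, MTHFD1 and ATF4 and lies downstream of it at ALDH1L2 and PHGDH, and no JMJD6 peak falls in any panel.

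None of the 3 serine synthesis genes had a promoter listed for N-Myc. At PHGDH (chromosome 1, 120191034 to 120286841, plus strand) a peak of 353 bp, from 120255758 to 120256110, lay in intron 1 of the canonical transcript, starting 1201 bp downstream of its start site and therefore 201 bp outside the promoter window of that site. The peak overlapped the end of an enhancer of 1436 bp, from 120254661 to 120256096, that was assigned to PHGDH. It was narrower than most, since 27.3% of the 3550 N-Myc peaks over a bound promoter were no wider. Its single E-box lay 8 bp from the peak midpoint, below the lower quartile of 28.5 bp for N-Myc promoter peaks with an E-box. PHGDH would count as promoter-bound if a peak within 1 kb of any annotated start site was accepted, since the gene has other annotated start sites. Under that definition 5 of 10 members and 21.7% of all genes were bound.

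At PSAT1 (chromosome 9, 80912041 to 80945009, plus strand) the assigned enhancer was far from the gene. It spanned 81192132 to 81194040, 281 kb downstream of the start site by the listed distance, with TLE4 as the other gene, and held a peak of 555 bp from 81192971 to 81193525 that overlapped no annotated gene. This intergenic peak held 2 E-boxes, 16 and 104 bp from its midpoint, and its G and C content was 37.1%, the lowest of the peaks at the members. PSPH (chromosome 7, 56078744 to 56119297, minus strand) had no listed region, and the nearest N-Myc peak was 54.9 kb upstream of its start site. That distance is close to the median of 53.8 kb over 18971 genes.

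The serine hydroxymethyltransferase genes differed in their listing. SHMT2 (chromosome 12, 57623356 to 57628718, plus strand) had 5 bound promoters in the list, 1 for each of 5 RefSeq start sites, all held by a single peak of 631 bp from 57623445 to 57624075. The peak covered the canonical start site and its midpoint lay 266 bp into the gene, in intron 1. It also covered the start site of an annotated gene without a symbol. Since the 5 listed promoters overlapped the same peak, their number at SHMT2 counts start sites and not peaks. Of the genes with a bound promoter, 0.369% had 5 or more listed start sites. The peak held 2 E-boxes in intron 1, at 203 and 337 bp downstream of the start site, and 6.59% of promoter peaks held more than 1. The enhancer assigned to SHMT2 ran for 11.1 kb from 57623500 to 57634599 and overlapped a further peak of 795 bp, from 57634258 to 57635052, which covered the start site of NDUFA4L2 and contained 1 E-box. SHMT1 (chromosome 17, 18231174 to 18266877, minus strand) was not listed, and its nearest N-Myc peak was 48.2 kb downstream of the start site.

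Among the one-carbon folate enzymes, the cytosolic MTHFD1, which interconverts the folate forms, had the widest peak. The MTHFD1 peak (chromosome 14, 64854032 to 64855336, gene on the plus strand from 64854749 to 64930175) was 1305 bp wide, and 99.0% of promoter peaks were no wider. It covered the canonical start site and that of the pseudogene TEX21P, and its midpoint was 387 bp upstream of the MTHFD1 site. Its E-box was 15 bp upstream of that site and 374 bp from the peak midpoint, and 2 copies of the related sequence CACGCG lay 742 and 860 bp upstream. A bound enhancer of 2814 bp surrounded this peak. A more distant enhancer of 14.5 kb, 55.7 kb upstream by the listed distance, was also assigned to MTHFD1, and its only peak (523 bp, 64805444 to 64805966, no CACGTG) lay over the listed promoter of ESR2.

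ALDH1L2, the mitochondrial 10-formyltetrahydrofolate dehydrogenase (chromosome 12, 105413562 to 105501421, minus strand), was bound downstream of its start site. The promoter peak was 590 bp wide, from 105477260 to 105477849, and began 387 bp downstream of the canonical start site, in intron 1. A narrower peak of 323 bp followed further into intron 1, from 105476865 to 105477187. The E-box was in the narrower peak, outside the listed promoter, 12 bp from the peak midpoint, and the promoter peak held none. ALDH1L2 was thus the only one of the 4 members with a bound promoter whose promoter peak lacked CACGTG.

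MTHFD1L, the mitochondrial enzyme that releases formate (chromosome 6, 151186815 to 151423023, plus strand), had a bound enhancer of 1228 bp within its own gene but no bound promoter. The peak in that enhancer was 708 bp wide, from 151366360 to 151367067, lay in intron 26, 180 kb downstream of the start site, and held no CACGTG. The mitochondrial dehydrogenase gene MTHFD2 (chromosome 2, 74413299 to 74444692, plus strand) was absent from every list, and its nearest N-Myc peak was 256 kb downstream of the start site. Of all genes, 83.6% had an N-Myc peak as near or nearer.

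At ATF4 (chromosome 22, 39915700 to 39918688, plus strand) a peak of 671 bp, from 39916027 to 39916697, covered the start site, with its midpoint 205 bp upstream. It held 1 E-box, 85 bp upstream of the start site, and 2 copies of CACGCG. The promoter was listed for 2 start sites. An enhancer of 14.2 kb, from 39915295 to 39929508, contained this peak and a peak of 459 bp over the promoter of RPS19BP1. A separate enhancer of 1705 bp, listed 17.7 kb upstream of ATF4, held a peak of 375 bp over the promoter of MIEF1, named there by the older symbol SMCR7L. Of the 3 peaks in enhancers assigned to ATF4, only the one at its own start site held CACGTG.

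**Figure D2:**
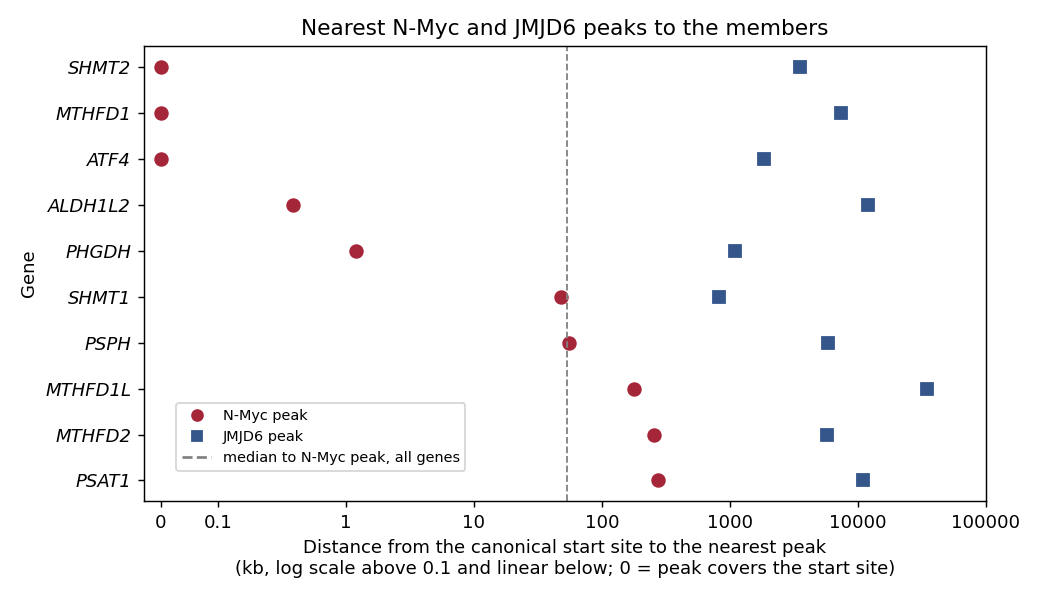
Distance in kb from the canonical start site of each member to the nearest N-Myc peak (circles) and the nearest JMJD6 peak (squares), on a log scale above 0.1 kb, with the median distance to an N-Myc peak over 18971 genes (53.8 kb) as a dashed line. The N-Myc peak covers the start site of 3 members and lies within 1201 bp in 2 others, while the nearest JMJD6 peaks are 824 kb or more away. The dashed line is for N-Myc only, and no median over all genes is given for JMJD6.

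No JMJD6 peak was near any member. The closest was 824 kb from the start site of SHMT1, followed by 1103 kb at PHGDH and 1862 kb at ATF4, and the farthest was 34585 kb from MTHFD1L. No JMJD6 distance over all genes is given here, so these distances cannot be called unusual. No JMJD6 peak was found in a member gene or within 5 kb of it, and none of the 12 distinct N-Myc peaks at the members overlapped a JMJD6 peak. The JMJD6 list held 561 peaks against 10172 for N-Myc, and the list of peaks shared by both held 241. With so few shared peaks, no overlap among 12 N-Myc peaks is near the background.

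The 12 peaks were 323 to 1305 bp wide, with a median of 572.5 bp. The 4 peaks over a member's promoter had a median width of 651 bp (590, 631, 671 and 1305 bp), against 452 bp for the 3550 N-Myc peaks over any bound promoter and 418 bp for all N-Myc peaks. All 4 were above both medians. Of the other 8 peaks, 4 lay over the promoter of a neighbouring gene and 4 over no listed promoter.

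**Figure D3:**
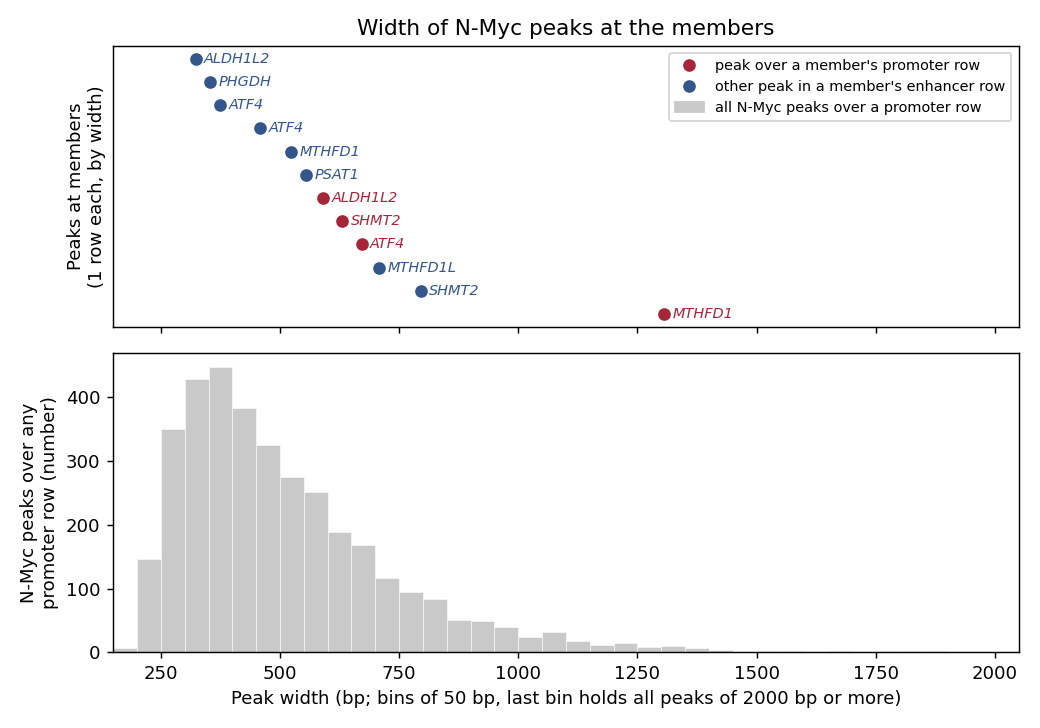
Width in bp of the 12 N-Myc peaks in regions of the members (upper panel, 1 point per peak, red for peaks over a member's promoter and blue for the others) above the number of N-Myc peaks over any bound promoter in bins of 50 bp (lower panel, 3550 peaks). The MTHFD1 promoter peak, at 1305 bp, is the widest of the 12, and the 4 promoter peaks of the members are all wider than the overall median of 452 bp.

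CACGTG occurred in 7 of the 12 peaks and in 3 of the 4 over a member's promoter, against 36.9% of N-Myc peaks over a bound promoter and 33.4% of all N-Myc peaks. Motifs were searched on both strands; CACGTG is its own reverse complement and is contained in the broader CANNTG. In 4 of the peaks, those of PHGDH, SHMT2, ALDH1L2 and the PSAT1 enhancer, an E-box lay within 100 bp of the peak centre, that is in 4 of 12 against 23.5% of all N-Myc peaks. Only the SHMT2 peak among these was over a member's promoter, or 1 of 4 against 23% of promoter peaks. The median distance from the midpoint was 70.5 bp over the 1309 promoter peaks with CACGTG. The MTHFD1 E-box, at 374 bp, was beyond the upper quartile of 134.5 bp, and the ATF4 E-box, at 122 bp, was within it.

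An E-box near the start site did not by itself separate bound from unbound members. Within 1 kb of the canonical start site CACGTG was present in 7 of 10 members, against 29.3% of 18971 genes. Of those 7, SHMT2, MTHFD1 and ATF4 had a bound promoter, and PSAT1, PSPH, SHMT1 and MTHFD1L did not. Among the genes with both a start site and a match in the reference table, 30.7% of the 5323 with such an E-box had a bound promoter, against 14.4% of the 12811 without it. The E-boxes of 3 unbound promoters are shown for comparison with those above, again with CACGTG in capitals. The one at SHMT1 was 86 bp downstream of the start site in exon 1, the one at PSPH 377 bp downstream in intron 1 and the one at PSAT1 604 bp upstream. Those of MTHFD1L, 812 bp upstream and 630 bp downstream of its start site, are not shown.
SHMT1 E-box, chr17:18266761-18266790, minus strand: ggagcggctggtCACGTGgctggcccgcgg
PSPH E-box, chr7:56118743-56118772, minus strand: gggattcagtaaCACGTGgtattttacttt
PSAT1 E-box, chr9:80911425-80911454, plus strand: gaactcaggaccCACGTGcaaatacaaaga

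The ATF4 response element TGATGNAA (on either strand, any base at N) was present within 1 kb of the canonical start site of 6 members, PHGDH, PSAT1, SHMT2, MTHFD2, MTHFD1L and ALDH1L2, against 18.6% of all genes. It was in none of the members' windows from 250 bp before to 50 bp after the start site, where 2.49% of genes had it. It was found inside the N-Myc promoter peaks of SHMT2, with 2 copies, and ALDH1L2, with 1 copy, that is in 2 of 4 peaks, against 4.87% of promoter peaks. The ALDH1L2 copy was 40 bp from the midpoint of the promoter peak that lacked an E-box. At PHGDH a copy lay 863 bp downstream of the start site, before the intronic N-Myc peak and outside it. A match of these letters is a description of the sequence and does not show that ATF4 was bound, which was not measured. All 9 elements within 1 kb of the members' start sites are shown with the matched letters in capitals, some of them as the reverse complement, and the one at MTHFD2 is the only one that is not of the form TGATGCAA.
SHMT2 element 1, chr12:57623942-57623971, plus strand: agccctgcagaTGATGCAAccgagcttcac
SHMT2 element 2, chr12:57623964-57623993, plus strand: agcttcactgcTTGCATCAggcaggggtcc
ALDH1L2 element, chr12:105477499-105477528, minus strand: gcgccttggaaTTGCATCAgctcctccaga
PHGDH element, chr1:120255409-120255438, plus strand: cgcccctcgtcTGATGCAAgactgctccgt
PSAT1 element, chr9:80912297-80912326, plus strand: ccctaggcgctTTGCATCAgcgtgcacagc
MTHFD1L element, chr6:151187482-151187511, plus strand: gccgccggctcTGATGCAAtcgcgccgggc
MTHFD2 element, chr2:74426329-74426358, plus strand: gctgctgcagcTGATGAAAtcgcggagccg
PHGDH upstream element, chr1:120253592-120253621, plus strand: cataattctcaTTGCATCActaatttgaaa
ALDH1L2 upstream element, chr12:105479192-105479221, minus strand: atctattaggtTGATGCAAaagtaattgcg

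Around the members, 60 further genes of the pathway and of the ATF4 response were looked up. Of these 21, or 35%, had an N-Myc-bound promoter, against 18.4% of all autosomal protein-coding genes. The groups were small, and differences between them were not tested. Of 15 folate carriers and enzymes, 7 were bound, among them SLC25A32, the mitochondrial folate carrier (widest promoter peak 704 bp), GGH, which trims polyglutamate from folate (404 bp), and TYMS, thymidylate synthase (354 bp). Of 14 genes of the methionine cycle and transsulfuration, 6 were bound, with the widest peaks at MAT2A, which makes S-adenosylmethionine (706 bp), CBS, which joins homocysteine to serine (689 bp), and MTR, methionine synthase (631 bp). The CBS peak also overlapped a listed promoter of CBSL, so by position it cannot be assigned to 1 gene. Among 12 genes of glycine cleavage, serine use and their carriers, DLD, a subunit of several dehydrogenase complexes, was the only one bound (456 bp).

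In the ATF4 group 7 of 19 genes had a bound promoter, against 18.4% of all genes. The widest peaks were at ATF3, a stress-induced transcription factor (700 bp), EIF2S1, the translation initiation subunit whose phosphorylation raises ATF4 protein (658 bp), and DDIT4, an inhibitor of mTORC1 (562 bp). Promoter peaks of SLC25A32, TYMS, MAT2A and EIF2S1 also overlapped the listed promoters of DCAF13, TYMSOS, PARTICL and ATP6V1D, respectively, so these peaks cannot be assigned to 1 gene. Over the 4 groups, 5 of the 21 genes had CACGTG in a promoter peak, 2 in the folate group and 3 in the methionine group. The ATF4 and glycine cleavage groups had none. Of all N-Myc peaks over a bound promoter 36.9% held CACGTG, a share counted by peak and not by gene. MTHFD2L, counted among the 21, had no common peak in its listed promoters. Over all genes 1.32% had a JMJD6-bound region, and of these 60 only SESN2, a leucine sensor induced by ATF4, had one. This was a typical enhancer of 27620 bp (chromosome 1, 28558671 to 28586290), shared with ATPIF1 and bound by both proteins, but its JMJD6 peak (28573420 to 28573998) and its N-Myc peak (28559339 to 28559684) did not overlap. When only peaks at least as wide as the median of all N-Myc peaks were counted, 11 of the 21 bound promoters remained, as did those of 59.7% of all genes with a bound promoter. The 4 member promoters all remained.

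**Figure D4:**
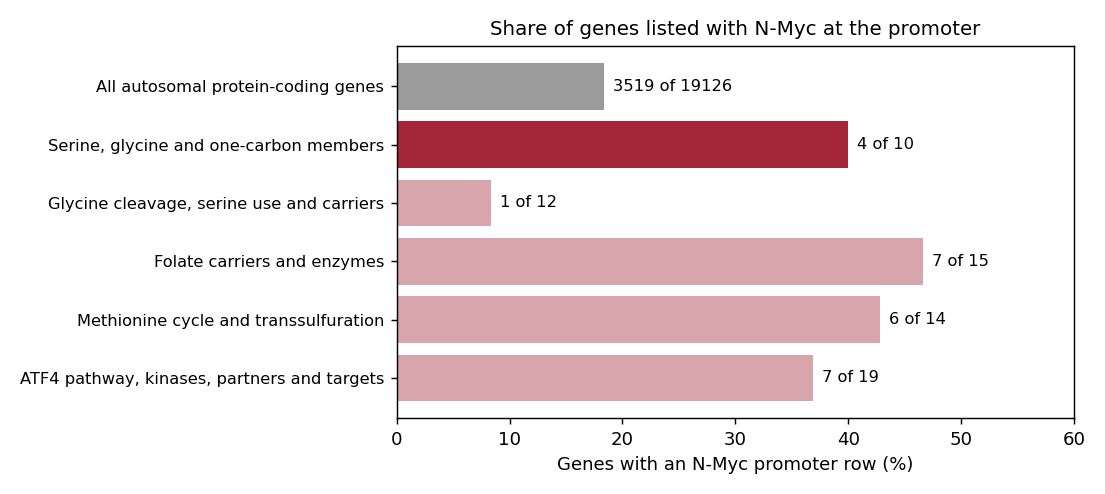
Percentage of genes with an N-Myc-bound promoter, with the number bound and the number looked up beside each bar, for all autosomal protein-coding genes (grey), the 10 members (red) and the 4 groups of related genes (pink). The members, at 4 of 10, stand between the ATF4 group at 7 of 19 and the methionine group at 6 of 14, and the glycine cleavage group at 1 of 12 is below the 18.4% of all genes.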

How the data were processed

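Peaks and bound regions of 6 ChIP-Seq samples, 3 per antibody, were taken from the 12 deposited lists, whose values are positions in bp. The authors aligned reads to hg19 with BWA, used SAMtools and BEDTools, and called peaks against input with MACS2 2.1.1.20160309 at default parameters with a q-value limit of 0.05. They kept peaks of all 3 replicates and defined enhancers with ROSE from H3K27ac data (stitched within 12.5 kb). For this they subtracted H3K27ac peaks within 1 kb of start sites. Nearest genes were assigned with GREAT. Weaker binding below the threshold, or missing in a replicate, is not listed, and a gene without a listed region may still hold a common peak.

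Members were matched by symbol, and peaks to regions by at least 1 bp. For the share of all genes, list symbols were matched to RefSeq protein-coding genes on autosomes, since the N-Myc promoter list held 0 regions on chromosome X; of 4150 symbols 192 matched by an older name and 100 did not match. Gene structures came from GENCODE version 44 lifted to GRCh37 (canonical transcripts) and sequence from GRCh37. The centre of each member promoter was 0 to 105 bp from an annotated start site. Code was tested on simulated data. Python 3.11.15, SciPy 1.17.1, pysam 0.24.0 and matplotlib 3.10.9 were used. The members and gene lists were chosen with earlier results of these data known. All members were named regardless of value, and of the further genes those with JMJD6 or super-enhancer regions and the 3 with the widest promoter peaks per group. Some items are not reported here. Alternatives are given in the closing section.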

Additional observations from a re-analysis of the deposited data

How the results depend on the processing

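Each of 7 results was recomputed under 16 alternatives in all, and 12 of these gave a value within 1.5 times of the reported one. Leaving out enhancers over bound promoters lowered the members with a bound enhancer from 7 to 3, and the share of all genes from 32.8% to 14.5%. Accepting any CANNTG, which 93.4% of all N-Myc peaks held, raised the peaks with an E-box from 7 to 11 of 12, and restricting the search to 100 bp either way from the peak centre lowered them to 4, with 23.5% of all N-Myc peaks holding one there. Counting only peaks at least as wide as the median lowered the bound promoters among the 60 related genes from 21 to 11. The count of 0 for JMJD6 at the members stayed at 0 when peaks within 5 kb of a start site or in the gene body were counted. For super-enhancers the single alternative kept only the nearer gene of each listed region. It is among the 12 but could only give 0, so it was no check of that count. No paired analysis was possible because the lists are merged over replicates and carry no value per sample, and for the same reason no replicate could be left out. Width is no measure of strength, and the lists do not give the reads behind each peak.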

Other observations

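An N-Myc peak of 256 bp in intron 12 of MTHFD1 (chromosome 14, 64896767 to 64897022), 41.8 kb downstream of the start site, was in none of the promoter, enhancer or super-enhancer lists and held no CACGTG. The promoters of MTHFD2L, a paralogue of MTHFD2, were listed as N-Myc-bound for 2 start sites although no common N-Myc peak overlapped them, as for 131 of the 5114 listed promoters. The form TGATGCAA of the ATF4 element, chosen after the sequences were seen, was within 1 kb of the start site in 5 of the 10 members and in 3.65% of 18971 genes. It was in the promoter peaks of SHMT2 and ALDH1L2 and in 1.55% of 3550 promoter peaks.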
